A study of Mus musculus with 8 samples.

Results

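Genes of the MHC class II route and marker genes of Langerhans cells were compared between skin treated with alpinetin (AP), a plant flavonoid, and skin treated with vehicle (VC). The members were taken by symbol from the deposited expression table. All 9 were found among its 18770 genes, 7 of them class II genes (H2-Aa, H2-Ab1, H2-Eb1, Cd74, Ciita, H2-DMa and H2-DMb1) and 2 of them Langerhans cell markers (Cd207 and Epcam). The mice were wildtype C57BL/6 males (C57BL/6J in the methods of the study) aged 7 to 8 weeks with depilated backs. AP mice received 20 µl of alpinetin at 3 mg/ml in 65% ethanol on the skin once a day, starting 24 h after depilation, and VC mice received 65% ethanol alone. Dorsal skin was taken at D4 after depilation, the interfollicular epidermis was removed, and mRNA of the dermis with its hair follicles was sequenced from 4 mice per group. The comparison shows how antigen presentation genes of the skin differed under a topical compound studied for hair growth.

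MHC class II molecules present peptides from endosomes to CD4 T cells and are made mainly by dendritic cells, macrophages, B cells and Langerhans cells. An alpha and a beta chain pair in the endoplasmic reticulum with the invariant chain Cd74, which blocks the peptide groove until endosomal proteases remove it and H2-DM helps a peptide to bind. Ciita is the coactivator that switches on these genes together with factors that sit on their promoters. Langerhans cells are the antigen-presenting cells of the epidermis and of the upper hair follicle, and they carry the lectin langerin, encoded by Cd207, and the adhesion molecule Epcam. Epcam is also made by epithelial cells of the follicle, so it does not mark Langerhans cells alone.

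The deposited values are normalized counts, that is reads per gene divided by 1 size factor per library. Libraries carry the names of the table columns, VC.1–VC.4 and AP.1–AP.4, and none was tied to a particular mouse. Depth on the listed genes was 6454563 to 7264151 reads in the VC libraries against 8507783 to 11190113 reads in the AP libraries. Mitochondrially encoded genes took 54.3%, 44.9%, 42.1% and 52.3% of the reads across VC.1–VC.4 against 11.1%, 7.85%, 5.32% and 10.3% across AP.1–AP.4 (two-sided exact permutation test over 70 assignments, p = 0.0286, the minimum for this design). Without them 3080758 to 3762217 reads remained in the VC libraries against 7561598 to 10594787 in the AP libraries. A floor of 3 reads equalled 4.10 to 5.63 normalized counts in the VC libraries against 1.49 to 2.18 in the AP libraries, a limit that covers counting error only. Dermal tissue was read in every library, where Col1a1 had 21330 to 67062 normalized counts in the VC libraries against 27508 to 84986 in the AP libraries. Genes of the suprabasal interfollicular epidermis were also read in every library, although the methods of the study state that this layer was removed, and Krt10 ranged from 1302 to 4085 normalized counts in the VC group against from 15852 to 73321 in the AP group. In AP.3 and AP.4 Krt10, at 47444 and 73321 normalized counts, exceeded Col1a1, at 43794 and 27508.

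Differences were tested with limma on log2(normalized counts + 1), and every log2 fold change below is AP over VC on that scale. Of 15964 genes tested, 1011 (6.33%) were higher and 639 (4.0%) lower in the AP group at an adjusted p under 0.05. With upper-quartile scaling the split was 890 higher and 892 lower, and with total counts it was 8670 higher and 65 lower. Over the genes tested the median log2 fold change was 0.06, and scaling by total counts shifted it to 0.90. The AP libraries were all above the VC libraries in 10.3% of the genes tested and below them in 8.91%. Against this background none of the 7 class II genes was called in either direction, while 1 of the 2 Langerhans cell markers, Cd207, was higher. At an unadjusted p under 0.05, which 30.3% of all genes tested reached (2720 genes higher and 2120, or 13.3%, lower), limma gave 1 class II gene (Ciita). DESeq2, edgeR and limma-voom on the recovered reads each called 0 of the 7, while of all genes they called 9.72%, 6.69% and 4.67% higher and 8.15%, 5.51% and 5.52% lower. Whether a difference stands for the number of cells that make a transcript or for the amount of it per cell cannot be told apart in these whole-tissue libraries.

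The chains that hold the peptide come from H2-Aa, H2-Ab1 and H2-Eb1, which lie together in the MHC on chromosome 17 of mm10. H2-Aa (ENSMUSG00000036594, 34282744 to 34287823), the alpha chain of I-A, had 3445, 1869, 1457 and 4800 normalized counts across VC.1–VC.4 against 2529, 1567, 1679 and 1633 across AP.1–AP.4. VC.4 and VC.1 were the highest libraries, VC.3 was the lowest, and the groups overlapped. For H2-Aa the log2 fold change was -0.51 (SE 0.33, 95% confidence interval -1.25 to 0.22, limma adjusted p = 0.325). H2-Ab1 (ENSMUSG00000073421, 34257689 to 34269419), the beta chain of I-A, had 4964, 2568, 1985 and 7013 normalized counts across VC.1–VC.4 against 3637, 1966, 2290 and 2431 across AP.1–AP.4. The libraries fell into nearly the same order as for H2-Aa, with VC.4 and VC.1 at the top. Its log2 fold change was -0.54 (SE 0.36, limma adjusted p = 0.337). H2-Eb1 (ENSMUSG00000060586, 34305867 to 34316674) encodes the beta chain of I-E and had 1610 to 4806 normalized counts in the VC group against 1639 to 2673 in the AP group. C57BL/6 mice lack surface I-E because the gene of its alpha chain is defective, but H2-Eb1 itself is transcribed in this strain. H2-Eb1 had a log2 fold change of -0.56 (SE 0.33, limma adjusted p = 0.278).

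Cd74 (ENSMUSG00000024610, chromosome 18 from 60803848 to 60812652), the invariant chain, had 7374, 5401, 3378 and 13343 normalized counts across VC.1–VC.4 against 7666, 4621, 4932 and 4947 across AP.1–AP.4. VC.4 stood well above the other libraries, and the AP group lay inside the range of the VC group. The log2 fold change of Cd74 was -0.26 (SE 0.36, limma adjusted p = 0.657), and without VC.4 it was 0.08. H2-DMa and H2-DMb1 encode the chains of H2-DM, the peptide exchange factor of the endosome. H2-DMa (ENSMUSG00000037649, chromosome 17 from 34119541 to 34139101) had 386, 179, 162 and 428 normalized counts across VC.1–VC.4 against 341, 225, 245 and 266 across AP.1–AP.4. Its group means, 289 and 269, differed by far less than the spread within the VC group, and the log2 fold change was 0.01 (SE 0.31, limma adjusted p = 0.979). H2-DMb1 (ENSMUSG00000079547, chromosome 17 from 34153072 to 34160230) had 111 to 289 normalized counts in the VC group against 150 to 277 in the AP group, a log2 fold change of -0.04 (SE 0.30, limma adjusted p = 0.939). The counts of both DM genes carry an uncertainty of assignment. H2-DMa shares 360 exonic nt with Brd2 on the opposite strand, whether counting used strand is not given in the sources used here, and 22.7% of the 50-base words of H2-DMb1 also occur in H2-DMb2.

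Ciita (ENSMUSG00000022504, chromosome 16 from 10480059 to 10528418) is the coactivator of the other class II genes. It had 20.01, 39.9, 39.6 and 93.8 normalized counts across VC.1–VC.4 against 102, 114, 81.7 and 91.6 across AP.1–AP.4, which came from 11 to 50 reads per VC library and 128 to 212 reads per AP library. VC.4 lay within the range of the AP libraries, and the other VC libraries lay below all of them. The log2 fold change was 1.19 (SE 0.40, 95% confidence interval 0.31 to 2.08, limma adjusted p = 0.0765), so that Ciita missed the threshold. Without VC.4 it was called, with a log2 fold change of 1.58 and a limma adjusted p of 0.0260. With the trend on transcript length removed, an alternative chosen after the data were seen, it was 0.83 with a limma adjusted p of 0.222. Over 22 alternatives the adjusted p of Ciita ranged from 0.00277 to 0.222 and was under 0.05 in 3. Ciita shares 329 exonic nt with Dexi on the opposite strand.

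**Figure D1:**
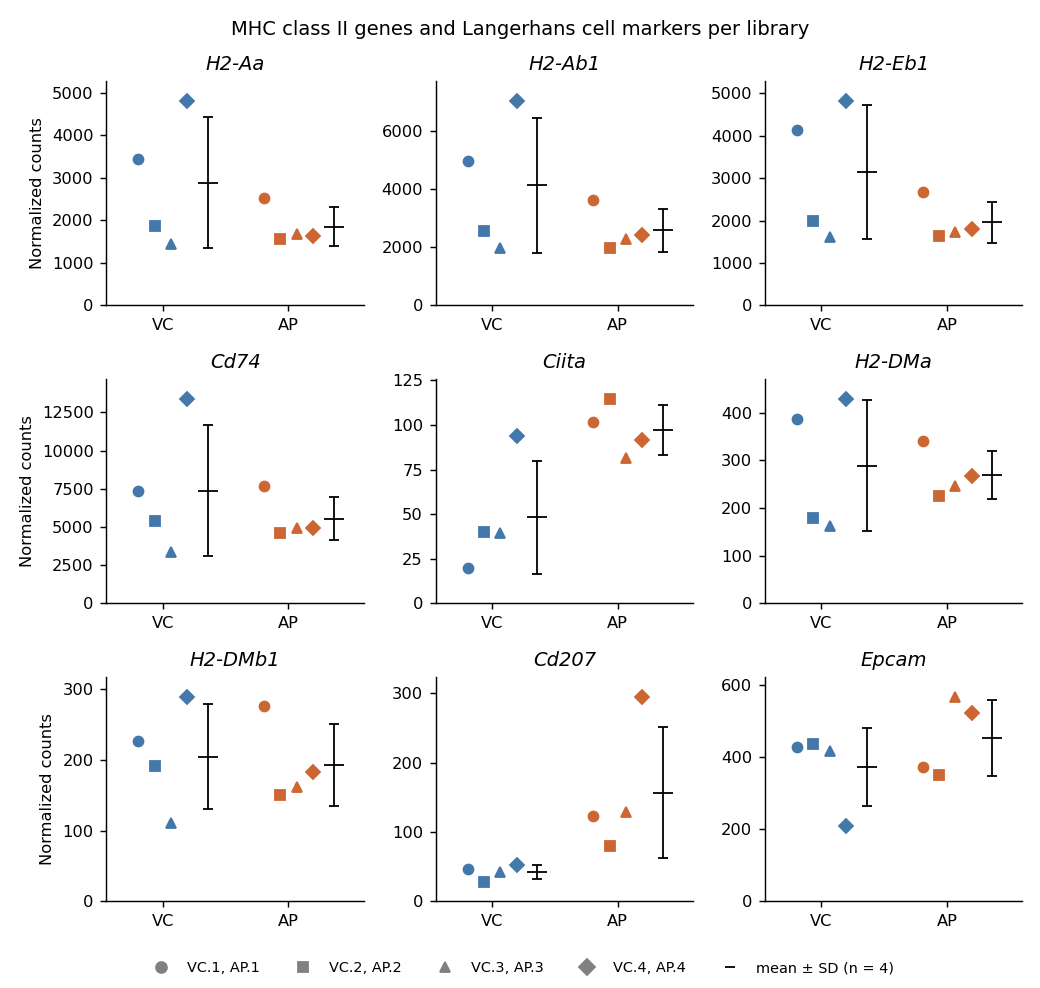
Normalized counts (y axis, linear, starting at 0) of the 7 class II genes and of Cd207 and Epcam in the 4 VC and the 4 AP libraries, with 1 symbol per library and the mean ± SD of each group beside the points. For Cd207 the AP libraries, at 79.8 to 294 normalized counts, sit above the VC libraries, at 28.1 to 52.5, while for the other 8 genes the groups overlap.

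VC.1 and VC.4 were the highest VC libraries for every class II gene with a log2 fold change below 0. These were also the libraries with the largest mitochondrial shares, 54.3% and 52.3%. H2-Aa, H2-Ab1, H2-Eb1 and Cd74 together took 0.330% of the non-mitochondrial reads in VC.1 and 0.519% in VC.4, against 0.213% in VC.2 and 0.165% in VC.3. In the AP libraries this share was 0.301%, 0.182%, 0.201% and 0.190%. The median log2 fold change of the 7 class II genes was -0.26, and it was 0.61 with total counts, where that of all genes was 0.90. It was 0.34 without VC.1 and VC.4, an alternative chosen after the data were seen. Leaving out the highest VC libraries had to raise the values below 0, so that fit cannot test what they depend on. In that fit Ciita had a log2 fold change of 1.26 and a limma adjusted p of 0.0478, and the other 6 class II genes lay between 0.10 and 0.64 without a call. Scaling by total counts called H2-DMa, H2-DMb1 and Ciita higher, with limma adjusted p of 0.0135, 0.0205 and 0.00277. The same scaling called 8670 of all 16137 genes tested higher.

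The summed level of 10 macrophage genes was also highest in VC.4 and VC.1, with 18634, 9480, 8268 and 24435 normalized counts across VC.1–VC.4 against 11284, 7544, 5339 and 5575 across AP.1–AP.4. Lyz2 alone gave 9603 normalized counts of the sum in VC.1 and 11655 in VC.4. Not every gene of the list followed the sum, since Fcgr1 was lowest in VC.1, at 41.8 normalized counts, and Mertk was highest in AP.2, at 224. None of the 10 was called by limma, edgeR or limma-voom. With limma 6 had an unadjusted p under 0.05, all of them lower, where 13.3% of all genes tested were lower at that threshold. DESeq2 called 3 of the 10 lower (8.15% of all genes with an adjusted p from DESeq2). The median log2 fold change of the 10 was -0.82, or 0.05 with total counts and -0.27 without VC.1 and VC.4. Lyz2 itself, the lysozyme of macrophages and neutrophils, had a log2 fold change of -1.08 (SE 0.37, limma adjusted p = 0.0786). Genes of leukocytes of all kinds, led by Laptm5, summed to 2398, 2017, 1925 and 4178 normalized counts across VC.1–VC.4 and to 2711, 1954, 1618 and 1666 across AP.1–AP.4, so that VC.4 was the highest and VC.1 lay below AP.1. Limma called 0 of these 7 genes, with 1 at an unadjusted p under 0.05, DESeq2 called 1 lower, and edgeR and limma-voom called 0. The median was -0.38, or 0.49 with total counts and -0.05 without VC.1 and VC.4. With total counts limma called 2 of the 7 higher, against 8670 of all 16137 genes tested. B cells left little trace, since Cd79b had at most 7.50 normalized counts in any library. Limma did not call Cd79b, and with so few reads the other tools may not have tested it. No other gene of the B cell list was tested by limma. The part of macrophages, of library depth and of the mitochondrial share in the class II levels was not tested.

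Per 1000 nt of transcript and per 1000000 non-mitochondrial reads, the levels of the members kept the same order in both groups. Cd74 was highest, with 915 ± 509 (SD, n = 4) in the VC group against 720 ± 183 in the AP group. H2-Ab1 (595 ± 313 and 389.7 ± 108), H2-Aa (448 ± 222 and 301 ± 73.1) and H2-Eb1 (328 ± 151 and 215 ± 51.9) followed. Then came Epcam (32.6 ± 10.1 and 40.7 ± 9.80), H2-DMa (30.4 ± 13.1 and 29.7 ± 5.37) and H2-DMb1 (25.6 ± 8.31 and 25.2 ± 7.32), whose levels overlapped in both groups. Cd207 (4.97 ± 1.15 and 18.7 ± 10.6) lay above Ciita (1.43 ± 0.91 and 2.97 ± 0.43) in every library. In the VC group the step from each of the upper 3 genes to the next was smaller than the SD of the higher gene.

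Ratios of reads within a library need no scaling between libraries, and they showed how tightly the chains were tied to each other. Per 100 reads of H2-Aa, H2-Ab1 had 125 to 149 reads over the 8 libraries and H2-Eb1 had 100.1 to 120.2, so that the highest ratio was 1.19-fold and 1.20-fold the lowest. Over the same libraries the normalized counts of H2-Aa ran from 1457 to 4800. The other class II members did not hold such a fixed ratio to H2-Aa. Cd74 had, per 100 reads of H2-Aa, 214, 289, 232 and 278 reads across VC.1–VC.4 against 303, 295, 294 and 303 across AP.1–AP.4. H2-DMa had 8.91 to 11.2 reads per 100 in the VC libraries against 13.5 to 16.3 in the AP libraries. Ciita had 0.58, 2.13, 2.72 and 1.95 reads per 100 across VC.1–VC.4 against 4.01, 7.29, 4.87 and 5.61 across AP.1–AP.4. H2-DMb1 had 6.60, 10.3, 7.59 and 6.02 reads per 100 across VC.1–VC.4 against 10.9, 9.56, 9.67 and 11.3 across AP.1–AP.4, with overlap (exact permutation test, p = 0.0857, adjusted 0.162). In the ratios of Cd74, H2-DMa and Ciita every AP library lay above every VC library, also above VC.4, in which Ciita itself was high. Each had an exact permutation p of 0.0286, or 0.0810 after Benjamini-Hochberg adjustment over the 17 ratios compared, so none passed a threshold of 0.05. H2-Aa per 100 reads of Ptprc, the leukocyte antigen CD45, was 981 to 1691 in the VC group against 896 to 1090 in the AP group, with overlap. H2-Aa per 100 reads of Lyz2 was 35.9 to 42.4 in the VC group against 48.1 to 69.2 in the AP group, without overlap (exact permutation test, p = 0.0286, adjusted 0.0810).

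Genes with the profile most like H2-Aa were looked for among 13296 genes with a mean of at least 20 normalized counts, by the root mean square distance between centred log2 profiles over the 8 libraries. The nearest were H2-Ab1 (0.07), H2-Eb1 (0.08), Ms4a6c (0.10), Ncf1 (0.17) and Cd74 (0.18), against a root mean square of 0.58 of H2-Aa around its own mean. Ms4a6c, a membrane protein of myeloid cells, had 276.5, 155, 116 and 390.0 normalized counts across VC.1–VC.4 against 232, 142, 123 and 136 across AP.1–AP.4. Ncf1 encodes a subunit of the phagocyte NADPH oxidase. H2-DMa ranked at 123 and H2-DMb1 at 212, with distances of 0.29 and 0.32, and Ciita lay far off at 1.07. The libraries differ in depth and mitochondrial share, which all profiles have in common.

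H2-Ab1, H2-Eb1 and Cd74 varied over the libraries much as H2-Aa did. The DM genes and Ciita did so less closely or not at all. For that reason the promoters of 6 members with an entry in the RefSeq table were searched for 3 motifs of class II promoters. The windows (GRCm38.p6) ran from 250 bases before to 50 after the gene start of RefSeq. The motifs, chosen after the sequences were seen, were the Y box as TGATTGG, an X box core as CTAGNAAC and an X2 box as TGANGTCA, on both strands and with no overlap between them in the stretches shown. They occur in 7.82%, 3.62% and 8.83% of all 32851 windows of that length. An entry was used for 6 of the 9 members (H2-Aa, H2-Eb1, H2-DMa, H2-DMb1, Cd207 and Epcam). The 3 promoters with a Y box and a second of these motifs are shown with the motifs in capitals, each on the strand of its gene: H2-Aa at chr17:34287847-34287917 on the minus strand, H2-Eb1 at chr17:34305753-34305832 and H2-DMb1 at chr17:34153074-34153154 on the plus strand.
H2-Aa: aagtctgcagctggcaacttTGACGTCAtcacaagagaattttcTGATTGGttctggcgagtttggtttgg
H2-Eb1: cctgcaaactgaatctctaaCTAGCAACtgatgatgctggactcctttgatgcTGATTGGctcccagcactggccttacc
H2-DMb1: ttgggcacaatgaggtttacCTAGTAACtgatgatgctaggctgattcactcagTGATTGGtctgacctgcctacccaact
The Y box began at position -50 from the RefSeq gene start in H2-Aa, -61 in H2-Eb1 and -63 in H2-DMb1. For H2-DMb1 RefSeq places the start at 34153191, inside the GENCODE gene that begins at 34153072, so the stretch shown lies within the latter. The windows of H2-DMa, Cd207 and Epcam did not hold these letters. A match is a description of the sequence and not of a bound site.

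Other genes of the class II route gave no call by any of the 4 tools. Of 4 further class II genes limma tested 3, and limma, DESeq2, edgeR and limma-voom called 0 of them. EdgeR and limma-voom tested 14453 genes after a filter on low reads, which can leave out genes as low as most of these. With limma 0 of the 3 had an unadjusted p under 0.05. The median log2 fold change was -0.12, or 0.62 with total counts and 0.78 without VC.1 and VC.4. H2-DMb2, the most abundant of them, had 23.2 to 35.6 normalized counts in the VC libraries against 22.1 to 78.3 in the AP libraries. Of the 7 factors that act with Ciita on class II promoters (the RFX and NF-Y subunits and Creb1), all 4 tools called 0. Their median was 0.08, or 0.95 with total counts and -0.04 without VC.1 and VC.4, and 1 had an unadjusted p under 0.05. This was Rfxank, a subunit of the RFX complex, with 216 to 300.1 normalized counts in the VC libraries against 159.5 to 213 in the AP libraries. Its groups did not overlap, and it had a log2 fold change of -0.46 (SE 0.18, limma adjusted p = 0.112), or 0.40 with total counts. Of 8 proteases and other endosomal proteins of the route 7 were listed and tested, and again the 4 tools called 0, with 1 at an unadjusted p under 0.05 and a median of -0.31, or 0.57 with total counts and 0.09 without VC.1 and VC.4. Ctsb, the most abundant of them, encodes cathepsin B and had a log2 fold change of -0.38 (SE 0.30, limma adjusted p = 0.422). Cathepsin S, the protease that trims the invariant chain in dendritic cells, is encoded by Ctss and had a log2 fold change of -0.70 (SE 0.36, limma adjusted p = 0.212). The co-stimulatory genes Cd40, Cd80 and Cd86 had a median of -0.75, or 0.05 with total counts and -0.01 without VC.1 and VC.4, with 0 of 3 called by any of the 4 tools and 0 at an unadjusted p under 0.05.

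Interferon gamma is the classical inducer of Ciita, and 1 of 7 genes of its signalling was called higher, against 6.33% of all genes tested. Jak1, a kinase of the interferon receptors, had 558.5, 554, 598 and 844 normalized counts across VC.1–VC.4 against 1024, 1143, 1121 and 1262 across AP.1–AP.4. VC.4 was the highest of the VC libraries but remained below every AP library, and the log2 fold change was 0.85 (SE 0.17, limma adjusted p = 0.0155). Leaving out 1 library gave Jak1 an adjusted p from 0.0116 to 0.0524, above 0.05 without AP.3 (0.0512) or AP.4, and with the length trend removed it was 0.57 (limma adjusted p = 0.0647). Ifngr1, the ligand-binding chain of the receptor, also separated the groups, at 424 to 514 and 555 to 872.5 normalized counts, with a log2 fold change of 0.46 (SE 0.17, limma adjusted p = 0.0992). Ifng itself was at 0 in VC.2, AP.1 and AP.3 and had at most 12.7 normalized counts elsewhere. Irf1, a transcription factor induced by interferon gamma, had a log2 fold change of 0.18 (SE 0.29, limma adjusted p = 0.704). In the MHC class I route 1 of 10 genes was called higher, against 6.33% of all genes tested, with a median over the 10 of 0.12. This was Nlrc5, the class I counterpart of Ciita. It had 58.2, 121, 136.5 and 60.0 normalized counts across VC.1–VC.4 against 196, 155, 284.5 and 263 across AP.1–AP.4, a log2 fold change of 1.31 (SE 0.32, limma adjusted p = 0.0308). Nlrc5 was called in 16 of 22 alternatives. The adjusted p was 0.0669 without VC.1, 0.0601 without VC.4, 0.103 without AP.3, 0.0891 without AP.4, 0.102 with the length trend removed and 0.134 without VC.1 and VC.4, where the log2 fold change was 0.76. The class I heavy chains H2-K1 and H2-D1 had log2 fold changes of 0.11 (SE 0.20) and 0.08 (SE 0.22), with limma adjusted p of 0.728 and 0.838, and B2m, the light chain, had 0.02 (SE 0.20, limma adjusted p = 0.964).

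Cd207 (ENSMUSG00000034783, chromosome 6 from 83671215 to 83677857), which encodes langerin, the lectin that forms Birbeck granules, was higher in the AP group. It had 47.3, 28.1, 42.3 and 52.5 normalized counts in VC.1 to VC.4, from 19 to 31 reads per library, and 123, 79.8, 129.5 and 294 across AP.1–AP.4, from 148 to 411 reads. Every AP library lay above every VC library, AP.4 was the highest, and VC.1 and VC.4, which were high in class II, did not stand out from VC.3. The mean of the AP group, 157 ± 94.2 (SD, n = 4), was 3.68-fold that of the VC group, 42.5 ± 10.5. The log2 fold change was 1.72 (SE 0.38, 95% confidence interval 0.89 to 2.56, limma adjusted p = 0.0224). It kept its direction in all 22 alternatives, between 1.37 and 2.58. The adjusted p was under 0.05 in 18 of them and above it with limma-voom (0.0780), without AP.3 (0.0684), without AP.4 (0.0597) and without both VC.1 and VC.4 (0.0589). Per 100 reads of H2-Aa, Cd207 had 1.37, 1.502, 2.90 and 1.09 reads across VC.1–VC.4 against 4.88, 5.09, 7.71 and 18.0 across AP.1–AP.4. Per 100 Ptprc reads it had 14.1 to 30.4 reads in the VC libraries against 49.2 to 180.3 in the AP libraries. Neither ratio overlapped between the groups (exact permutation test, p = 0.0286 each, adjusted 0.0810).

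Epcam (ENSMUSG00000045394, chromosome 17 from 87635979 to 87651129) was not called. It had 427.5, 434.5, 415 and 210.0 normalized counts across VC.1–VC.4 against 373.5, 350.5, 565 and 521 across AP.1–AP.4. VC.4 was far below the other VC libraries, and AP.1 and AP.2 lay within the range of the VC group. Its log2 fold change was 0.31 (SE 0.26, 95% confidence interval -0.25 to 0.88, limma adjusted p = 0.440). Without VC.4 it was 0.06, and only scaling by total counts called it (1.18, limma adjusted p = 0.00790). The reads of Epcam were 177 to 1547 per 100 reads of Cd207, a ratio that varied 8.74-fold over the libraries and overlapped between the groups (exact permutation test, p = 0.0857, adjusted 0.162), so that a difference between the changes of Epcam and Cd207 was not shown.

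Other genes that Langerhans cells express were also higher in part. Of 8 such genes 2 rose (Ly75 and Cdh1), against 6.33% of all genes tested, and none fell. All 8 log2 fold changes were above 0, with a median of 0.79, but not all were far from 0. Those of Itgax, Cd24a and Sirpa were 0.10, 0.08 and 0.15 (limma adjusted p = 0.893, 0.862 and 0.740). Ly75, the endocytic receptor DEC-205, had 0, 11.8, 8.19 and 3.75 normalized counts across VC.1–VC.4 against 27.6, 41.0, 38.4 and 73.7 across AP.1–AP.4. Its VC values lie near the floor of 3 reads, and the log2 fold change of 3.16 (SE 0.75, limma adjusted p = 0.0271) was called in 17 of 22 alternatives. The adjusted p was 0.0688 without AP.2, 0.0813 without AP.3, 0.0859 without AP.4, 0.0504 with limma-voom and 0.0544 without VC.1 and VC.4, where the log2 fold change was 2.0. Cdh1, which encodes E-cadherin of keratinocytes and Langerhans cells, had 501 to 882 normalized counts in the VC libraries against 1075 to 2167 in the AP libraries. Cdh1 had a log2 fold change of 1.20 (SE 0.26, limma adjusted p = 0.0211), and the adjusted p was 0.0505 without VC.1, 0.0688 without AP.3, 0.0637 without AP.4 and 0.119 without VC.1 and VC.4. H2-M2, a class I gene of the MHC known from Langerhans cells, had 20.01, 5.91, 2.73 and 18.8 normalized counts across VC.1–VC.4 against 41.3, 24.3, 42.4 and 80.8 across AP.1–AP.4. The groups did not overlap, and its log2 fold change was 2.12 (SE 0.62, limma adjusted p = 0.0507), or 3.12 without VC.1 and VC.4 (limma adjusted p = 0.0371), and it was called in 10 of 22 alternatives. Mfge8 was the most abundant gene of the list over all libraries, but in the AP group its mean, 1524, lay below that of Cdh1, 1569. Mfge8 had a log2 fold change of 0.54 (SE 0.26, limma adjusted p = 0.190).

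Of 10 genes that act in the development and upkeep of Langerhans cells, limma called 2 higher and 0 lower (6.33% and 4.0% of all genes tested), with a median of -0.06 (0.80 with total counts and 0.10 without VC.1 and VC.4). DESeq2 called 3 higher and 2 lower, and edgeR and limma-voom each called 2 higher and 1 lower. Tgfbr2, a receptor of TGF-beta, had 549 to 754 normalized counts in the VC libraries against 940.2 to 1485 in the AP libraries, a log2 fold change of 0.95 (SE 0.18, limma adjusted p = 0.0132) that was called in all 22 alternatives. Itgav, an integrin subunit involved in the activation of TGF-beta, had a log2 fold change of 1.26 (SE 0.33, limma adjusted p = 0.0352) and was not called without VC.4 (0.0609), AP.2 (0.0831), AP.3 (0.105) or AP.4 (0.0820), nor with the length trend removed (0.84, adjusted p = 0.108) or without VC.1 and VC.4 (0.73, adjusted p = 0.0820). Il34, the keratinocyte cytokine on which Langerhans cells depend, separated the groups at 97.5 to 134 and 145 to 197 normalized counts, with a log2 fold change of 0.61 (SE 0.20, limma adjusted p = 0.0704). Id2 and Runx3, transcription factors needed for Langerhans cells, separated the groups the other way. Id2 had 367.5 to 431 and 275 to 339 normalized counts (log2 fold change -0.43, SE 0.15, limma adjusted p = 0.0757), or 0.44 with total counts. Runx3 had 87.3 to 176 and 54.4 to 76.9 normalized counts (log2 fold change -0.86, SE 0.27, limma adjusted p = 0.0595), and DESeq2, edgeR and limma-voom called it lower (0.0114, 0.0445 and 0.0465), while with total counts it was -0.003. These genes are also expressed by other skin cells.

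Markers of other dendritic cells did not give a call. For type 1 conventional dendritic cells the median log2 fold change of 7 genes was 0.90, or 1.64 with total counts and 0.35 without VC.1 and VC.4. Of these genes 1 had an unadjusted p under 0.05. Their summed level, with Cadm1 as the most abundant gene by its mean, was 399 to 649 normalized counts in the VC libraries against 533 to 620.1 in the AP libraries. Type 1 dendritic cells of the dermis can also carry langerin, and their part in the level of Cd207 was not tested. Xcr1 had 0 to 13.1 normalized counts in the VC libraries against 1.43 to 19.6 in the AP libraries (log2 fold change 0.94, limma adjusted p = 0.535), and Clec9a had 0 to 14.8 against 2.86 to 24.8 (1.05, limma adjusted p = 0.461). For type 2 cells the median of 5 genes was -0.50, or 0.35 with total counts and -0.05 without VC.1 and VC.4, with 0 at an unadjusted p under 0.05. Their summed level, led by Clec10a, was 2085, 1204, 826 and 2683 normalized counts across VC.1–VC.4 against 1928, 870.2, 740.4 and 749 across AP.1–AP.4. For 5 tested genes of mature migratory dendritic cells, led by Fscn1, the median was -0.20, or 0.63 with total counts and 0.11 without VC.1 and VC.4, and 2 had an unadjusted p under 0.05, against 30.3% of all genes tested. Limma, DESeq2, edgeR and limma-voom called 0 genes in each of these 3 lists. Genes with few reads, such as Xcr1, may not have been tested by every tool.

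Of 7 T cell genes 1 was called higher, against 6.33% of all genes tested. This was Trdc, the constant region of the delta chain of gamma delta T cells, which in mouse epidermis are neighbours of Langerhans cells. It had 3.64, 11.8, 19.1 and 11.3 normalized counts across VC.1–VC.4 against 29.7, 30.7, 37.4 and 66.5 across AP.1–AP.4. The log2 fold change was 1.86 (SE 0.52, limma adjusted p = 0.0440), and it was called in 9 of 22 alternatives. Of the 8 libraries left out in turn the call of Trdc held only without VC.3, with an adjusted p from 0.0362 to 0.136. It was also lost with limma-voom (0.0959), without a filter (0.0559), with a filter at a mean of 20 (0.05003), with reads drawn down (0.0779), with the length trend removed (0.0713) and without VC.1 and VC.4 (0.119). Cd3d separated the groups as well, at 0 to 9.38 and 13.1 to 30.8 normalized counts, with a log2 fold change of 1.91 (SE 0.76, limma adjusted p = 0.117). Cd4 was the most abundant gene of the list by its mean over all libraries, but not within the AP group. It reached 139 normalized counts in VC.4 and 10.7 to 35.5 in the AP libraries. The log2 fold change of Cd4 was -1.26 (SE 0.58, limma adjusted p = 0.165). The list summed to 49.1, 93.1, 123 and 202.5 normalized counts across VC.1–VC.4 and to 151, 146, 145 and 237 across AP.1–AP.4, with a median log2 fold change of 1.18. Per 100 reads of Cd207, Trdc had 7.69 to 45.2 reads in the VC libraries against 22.6 to 38.5 in the AP libraries, with overlap (exact permutation test, p = 0.971).

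**Figure D2:**
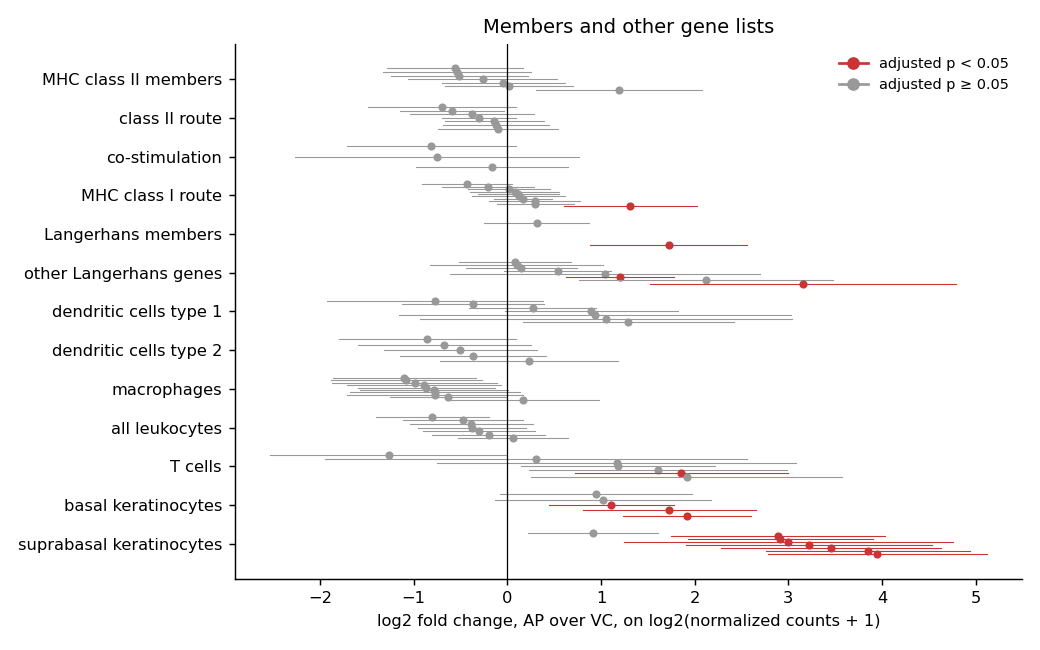
Log2 fold change of AP over VC (x axis) of each tested gene, by gene list (y axis), with points for estimates from limma and lines for 95% confidence intervals. Genes with an adjusted p under 0.05 are in red: Cd207 is the only member among them, and 7 of 8 suprabasal keratinocyte genes are.

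Suprabasal keratinocyte genes were, like Cd207, higher in the AP group. Of 8 such genes 7 rose, against 6.33% of all genes tested, with a median log2 fold change of 3.11. Their summed level was 5539, 12183, 8216 and 5291 normalized counts across VC.1–VC.4 against 42037, 39832, 116364 and 166570 across AP.1–AP.4. Within the VC group the order of normalized counts was opposite to that of Cd207, which was lowest in VC.2 and highest in VC.4. The Cd207 values came from only 26, 19, 31 and 28 reads across VC.1–VC.4, so their order within the VC group is uncertain. Krt10, the most abundant of them, had a log2 fold change of 3.85 (SE 0.50, limma adjusted p = 0.00367), and Krt1, Krt77, Ivl, Lor, Flg and Krtdap had 2.89 to 3.95. Without VC.1 and VC.4 the median was 2.73 and 3 of the 8 were called, since the adjusted p was 0.0523 for Krt1, 0.0672 for Ivl, 0.0753 for Flg and 0.160 for Lor. Lor was not called when any library other than AP.2 was left out, and limma-voom did not call Ivl (0.0501). In the basal layer, where the list summed to 21375 to 76900 normalized counts in the VC libraries against 47897 to 136014 in the AP libraries, Itga6, Itgb4 and Col17a1 rose (1.92, 1.11 and 1.73) among 5 genes, again against 6.33% of all genes tested. The call of Itgb4 was lost without VC.1, VC.4, AP.2, AP.3 or AP.4 and that of Col17a1 without VC.1, VC.4, AP.3 or AP.4, with adjusted p of up to 0.118 and 0.0917. Without VC.1 and VC.4 the log2 fold change was 0.54 for Itgb4 and 0.96 for Col17a1, with limma adjusted p of 0.168 and 0.139. With the length trend removed the adjusted p was 0.124 and 0.0641, and Itgb4 was also not called by edgeR (0.0577) or with total counts of the non-mitochondrial genes (0.0526). Itga6 was called in all 22 alternatives. Krt14, the most abundant of these 5, had a log2 fold change of 1.02 (SE 0.53, limma adjusted p = 0.212). The study had also picked Krt10, Krt77 and Itga6 from these libraries, so they are not independent evidence. Per 100 reads of Krt5, the keratin of the basal layer, Cd207 had 0.40, 0.08, 0.20 and 0.51 reads across VC.1–VC.4 against 0.54, 0.38, 0.33 and 0.48 across AP.1–AP.4, so that the groups overlapped (exact permutation test, p = 0.343, adjusted 0.486). Against 100 Krt10 reads it had 0.69 to 3.63 reads in the VC libraries against 0.27 to 0.78 in the AP libraries, a lower mean in the AP group with overlap (exact permutation test, p = 0.0571, adjusted 0.139). Epcam had 1.30 to 3.62 reads per 100 reads of Krt5 in the VC libraries against 0.86 to 1.65 in the AP libraries, with overlap (exact permutation test, p = 0.143). Of 6 fibroblast genes, led by Col1a1 in the mean over all libraries, all 4 tools called 0, with 1 at an unadjusted p under 0.05. Their median was 0.49, or 1.36 with total counts and 0.85 without VC.1 and VC.4. With total counts limma called all 6 higher, and 8670 of all 16137 genes tested. The part of the epidermal share of the tissue in the level of Cd207 was not tested.

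**Figure D3:**
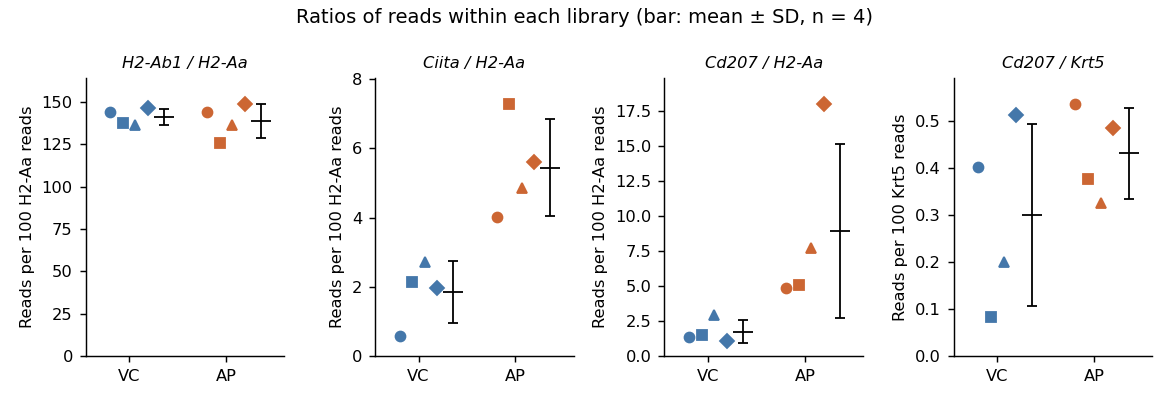
Reads of H2-Ab1, Ciita and Cd207 per 100 reads of H2-Aa, and of Cd207 per 100 reads of Krt5, in each of the 4 VC and 4 AP libraries (y axes linear, starting at 0), with the mean ± SD of each group beside the points. H2-Ab1 stays at 125 to 149 reads in all libraries, Ciita and Cd207 per 100 H2-Aa reads are higher in each AP library than in any VC library, and Cd207 per 100 Krt5 reads overlaps between the groups.

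The 5 genes with the profile most like Cd207 over the 8 libraries, out of the same 13296, were Alox5 (0.40), Tnk2os (0.42), Rasgrp1 (0.43), Skint3 (0.43) and Galnt7 (0.44), against a root mean square of 1.01 of Cd207 around its own mean. Alox5, which encodes 5-lipoxygenase of leukotriene synthesis, had 20.01, 17.7, 39.6 and 35.6 normalized counts across VC.1–VC.4 against 104, 57.7, 86.7 and 118 across AP.1–AP.4. Skint3, of a family expressed in skin and thymus, had 20.7 to 38.2 normalized counts in the VC libraries against 67.4 to 301 in the AP libraries. Ciita lay at a distance of 0.82, Epcam at 0.94 and H2-Aa at 1.29 from Cd207.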

How the data were processed

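Per the methods of the study, mRNA was enriched with oligo-dT beads, and reads were cleaned, aligned to mm10 with STAR and counted per gene with featureCounts, while the submitters' processing notes list HTSeq. The deposited signal of each library is its read counts divided by 1 DESeq2 size factor. All 150160 values, that is 100% of them, were whole reads within a tolerance that started at 0.01 reads, and the reads were recovered. For large counts the tolerance widened in proportion to the count, so that the largest counts could not fail this check. The authors' comparison (mean, log2 fold change, its error, statistic, p-value and adjusted p-value) was not used. Genes that reached 3 normalized counts in 4 or more libraries were tested on log2(value + 1) by limma 3.58.1 in R 4.3.3 with an intensity trend, AP against VC without covariates, with Benjamini-Hochberg adjustment. The step was tested on simulated data. DESeq2 1.42.0, edgeR 4.0.16 and limma-voom on the recovered reads, which called 3084, 1764 and 1473 genes, were alternatives, as were other scalings, pseudocounts and filters, reads drawn down to the smallest non-mitochondrial total, another threshold and each library left out. Removal of VC.1 and VC.4, a correction for transcript length (loess span 0.3, fitted where the mean was 50 normalized counts or more) and TMM scaling were added after the data were seen. Of the count tools, edgeR and limma-voom tested 14453 genes, and DESeq2 gave an adjusted p for 17258. A list gene with few reads can therefore lack a call from a tool that did not test it. Single values of a library were compared by exact permutation. Named were the members, list genes with an adjusted p under 0.05 or groups that did not overlap, the most abundant gene of a cell type list, defining markers without reads and the 5 genes most like H2-Aa and Cd207; other list genes were chosen for mention after their values were seen. The members and lists were chosen with earlier results of these data known. Coordinates and transcript lengths are from GENCODE M21, which holds 18766 of the 18770 identifiers. Depth was 6454563 to 11190113 reads, which left 11 to 50 reads of Ciita and 19 to 31 of Cd207 in the VC libraries. Some list genes are not reported here.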

Additional observations from a re-analysis of the deposited data

Results flagged for a closer look

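The 68 genes examined were the members and the other genes given with values, except Itgax, Cd24a and Sirpa. Their values and those of 3 library measures (reads, mitochondrial share and genes with a read) were examined in each group. In 10 of these 142 groups of 4 libraries, 1 library lay apart from the rest of its group, its gap to the nearest library as a share of the range exceeding the 95% critical value of Dixon's test. Chance gives about 1 in 20 such groups. AP.1 held 3 of them in class II genes whose levels go together: 2529 normalized counts of H2-Aa, 2673 of H2-Eb1 and 7666 of Cd74, each the highest of the AP group, with gaps of 0.884, 0.849 and 0.893 of the range. It was also the highest for Clec10a, with 958.8 (gap 0.979). VC.4 was the lowest VC library for Epcam, with 210.0 normalized counts (gap 0.914), and the highest for Jak1, with 843.8 (gap 0.848), Mfge8, with 1787 (gap 0.851), Cd4, with 138.8 (gap 0.941), and Laptm5, with 1050 (gap 0.856). VC.1 was the lowest VC library for Id2, with 367.5 normalized counts (gap 0.832). Without AP.1 the class II median log2 fold change was -0.43, and without VC.4 it was 0.08. The cause was not tested.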

How the results depend on the processing

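Cd207 kept its direction in all 22 alternatives. Of the 198 values of the 9 members under alternatives, 166 kept their direction and their side of the threshold, 5 passed it, 4 no longer passed it and 23 turned direction (1 of these, H2-DMb1 with total counts, also passed it), and of the 527 values of other named genes 439, 22, 64 and 2 did. With total counts, which raised the median of all genes to 0.90, 8735 genes were called (8670 higher, 65 lower), among them 3 class II genes and both (2) Langerhans cell markers. The class II median was then 0.61, and the log2 fold changes turned to 0.36 for H2-Aa, 0.33 for H2-Ab1, 0.31 for H2-Eb1, 0.61 for Cd74, 0.82 for H2-DMb1, 0.40 for Rfxank and 0.44 for Id2. Without VC.1 and VC.4, 386 genes were called (267 higher, 119 lower), 1 class II gene and 0 Langerhans cell markers; the class II median was 0.34, with 0.14 for H2-Aa, 0.15 for H2-Ab1, 0.10 for H2-Eb1, 0.34 for Cd74 and 0.36 for H2-DMb1. DESeq2 called 3084 genes (1677 higher, 1407 lower), limma-voom 0 Langerhans cell markers, and removal of the length trend left 1011 genes, 543 of them higher. Leaving out 1 library gave 303 to 1899 called genes (209 to 1082 higher, 94 to 817 lower), the lowest without AP.3, 553 without AP.2 (398 higher, 155 lower), 393 without AP.4 (254 higher, 139 lower) and 846 without VC.1 (585 higher, 261 lower), with 0 to 1 class II genes (1 without VC.4), 0 to 1 Langerhans cell markers (0 without AP.3 or AP.4) and class II medians from -0.58 to 0.08. These fits have fewer libraries; otherwise the cause was not tested. Small values turned direction too: Cd74 was 0.082 without VC.4, H2-DMa was -0.046 with upper-quartile scaling, -0.042 with reads drawn down, -0.10 with DESeq2, -0.11 with edgeR and -0.17, -0.22 and -0.10 without VC.2, VC.3 and AP.1 (up to 0.25 without VC.4), and H2-DMb1 was 0.19 with the length trend removed and 0.035, 0.15, 0.065 and 0.026 without VC.1, VC.4, AP.2 and AP.3 (down to -0.31 without VC.3). Depth limits Ciita, Cd207, Ly75, H2-M2, Trdc, Cd3d, Ifng and Xcr1, since few reads lie behind their VC values.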
